A study of Mus musculus and Homo sapiens with 12 samples.

Results

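Pspc1, Sfpq, Nono, Hnrnpk, Matr3 and Rbm14 encode RNA-binding proteins of paraspeckles and of the nuclear matrix. These 6 mouse genes and the human genes of the same symbols were found by Ensembl identifier among 54446 mouse and 58721 human genes. The human set held 7 identifiers, because MATR3 had 2. Chromatin-associated RNA (caRNA), which stays bound to chromatin when nuclei are fractionated, had been fragmented and pulled down with an antibody against 5-methylcytosine (m5C) to give IP libraries, and sequenced without pull-down to give Input libraries. The cells were wild-type mouse embryonic stem cells (mESC), grown with LIF, CHIR99021 and PD0325901 and passaged on gelatin to remove feeder cells, and wild-type K562 cells, an established human leukaemia line. The deposited labels give puromycin in the medium of the K562 cells, which the study's methods give only for lines carrying a short hairpin RNA. Each line gave 3 IP and 3 Input libraries, so that 12 libraries formed 4 groups. The titles set the groups. The antibody field went against them, naming no antibody for mESC IP and the m5C antibody for K562 Input. The study describes its sequencing data as coming from biological replicates, while the labels of these libraries do not say which cultures they came from, and p-values measure the spread between these libraries. The counts measure RNA made from each gene, not the protein.

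Paraspeckles are nuclear bodies built on the long non-coding RNA NEAT1. PSPC1, SFPQ and NONO form the DBHS family, whose members pair with each other and coat NEAT1. HNRNPK, a poly(C)-binding protein, acts on the choice between the short and the long NEAT1 isoform, RBM14 carries a prion-like domain that paraspeckle assembly needs, and MATR3 is a nuclear matrix protein with RNA recognition motifs and zinc fingers. m5C is placed on RNA mainly by NSUN enzymes. PSPC1 is of interest in this study as an RNA-binding partner of TET2, an enzyme that oxidises m5C.

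How far each gene could be counted differed and is given first. Reads had been counted over whole genes with regard to strand, and bases shared with another counted gene on the same strand gave no count: of genes nested in an intron of a protein-coding gene on the same strand, 0.0465% in mESC and 0.795% in K562 had any count, against 56.6% and 37.3% of those nested on the opposite strand. The countable length below is therefore the part of a gene not covered by another counted gene on its strand, in GENCODE annotation. Pspc1 (ENSMUSG00000021938.12, chromosome 14, 56720710 to 56778316, minus strand, GRCm38) was countable over all of its 57.6 kb, of which 9.95% were exonic. Nono (ENSMUSG00000031311.17, chromosome X, 101429318 to 101448591, plus strand) was countable throughout. Hnrnpk (ENSMUSG00000021546.18, chromosome 13, 58391142 to 58403343, minus strand) lost only the 108 bp of Mir7-1, and Matr3 (ENSMUSG00000037236.14, chromosome 18, 35562138 to 35593835, plus strand) was countable over 93.2%. Sfpq (ENSMUSG00000028820.13, chromosome 4, 127021324 to 127037013, plus strand) was countable over 79.1%, since Gm12940 covers its 3′ part.

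Rbm14 (ENSMUSG00000006456.10, chromosome 19, 4800569 to 4811634, minus strand) lies inside Gm21992, a readthrough gene, but for the 22 bp that were countable. It had 0 counts in all 6 mESC libraries. RBM14 (ENSG00000239306.4, chromosome 11, 66616626 to 66629934, GRCh38) lies wholly inside RBM14-RBM4 and had 1 count over all 6 K562 libraries together. The MATR3 identifier ENSG00000015479.18 had 6 countable bp and 0 counts. The other, ENSG00000280987.4 on chromosome 5, 139273752 to 139331671, is a readthrough gene that was countable over 9.124 kb or 15.8%. It had 82, 70 and 67 Input counts and 0, 2 and 0 IP counts, a ratio of CPM (counts scaled to a library total of 1e+06 counts in genes) of 0.991 with an exact (Clopper-Pearson) 95% interval of 0.119 to 3.62, which covers counting error only (edgeR adjusted p = 0.907). Its comparison with mouse Matr3 would set a small part of the gene against nearly all of it and is not given. Zeros of these genes are thus no measure of their RNA. The readthrough genes that cover RBM14 were counted only outside it: Gm21992 had 525, 525 and 526 CPM in mESC Input and 230, 270 and 348 CPM in IP, and RBM14-RBM4 had 63.3 ± 2.31 CPM in K562 Input and 43.6 ± 20.8 CPM in IP (SD, n = 3). Expression was measured for 5 genes in mESC and for 4 in K562, where PSPC1 (ENSG00000121390.18, chromosome 13, 19674752 to 19783019), SFPQ (ENSG00000116560.10, chromosome 1, 35176378 to 35193446), NONO (ENSG00000147140.15, chromosome X, 71254814 to 71301522) and HNRNPK (ENSG00000165119.20, chromosome 9, 83968083 to 83980631) were countable over 99.1% or more of their length.

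**Figure D1:**
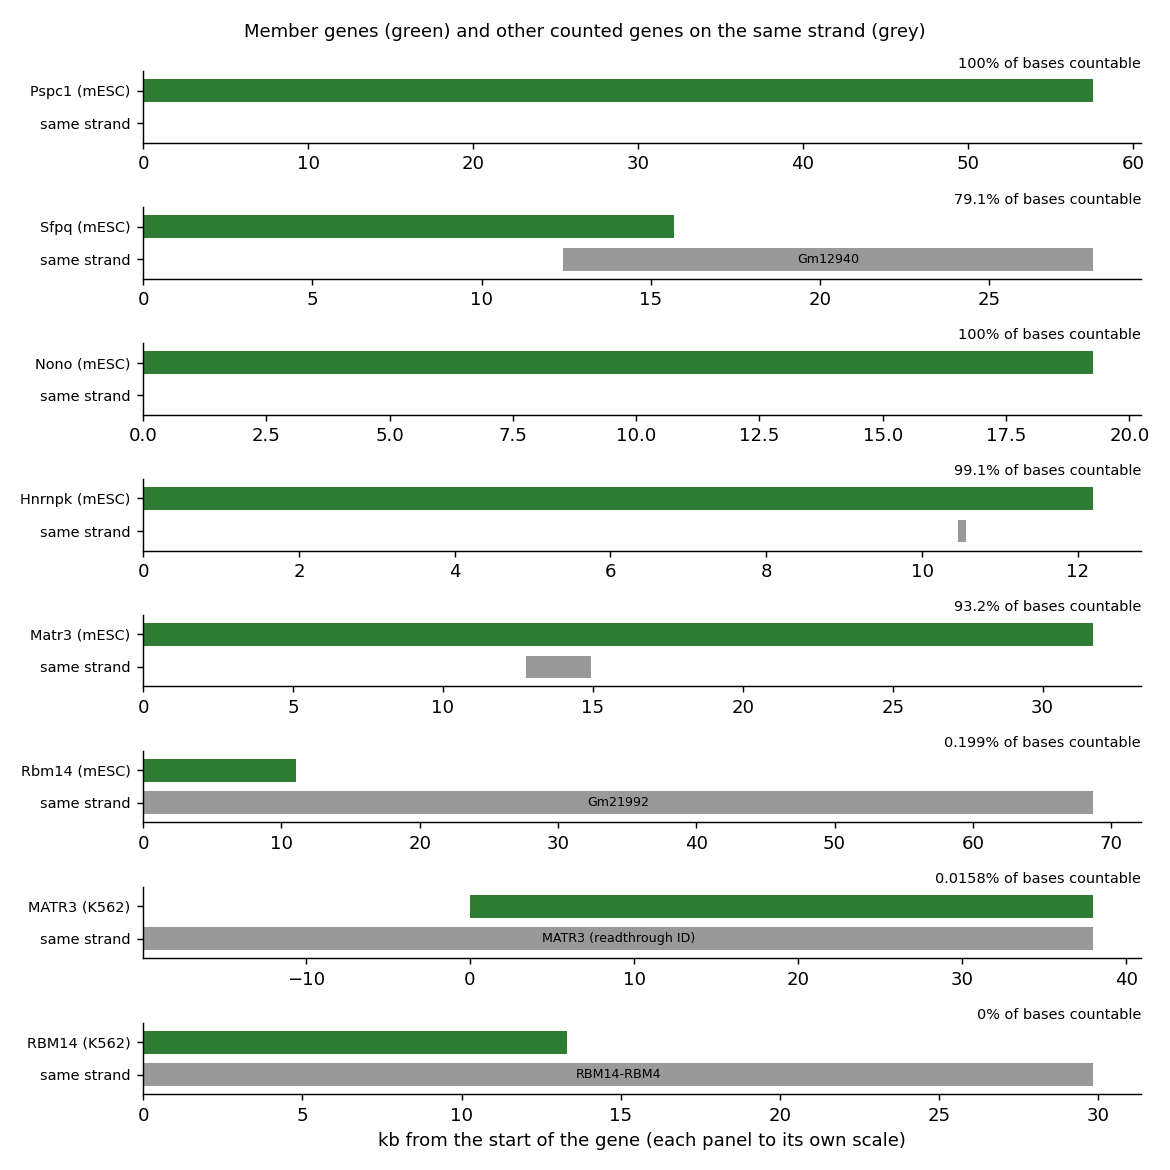
Maps of 8 member genes, in kb from the start of the gene in the direction of transcription, with the member in green and other counted genes of the same strand in grey. Rbm14, MATR3 (ENSG00000015479.18) and RBM14 are covered by readthrough genes, while Pspc1 and Nono are free over their whole length.

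The promoter stretches of Pspc1 and Sfpq are shown because these 2 partners of the DBHS family behaved alike in mESC and differed in their letters, and because both stretches lie outside the annotated gene. Each is the 100 bases before the RefSeq start (GRCm38), at chr14:56778319-56778418 on the minus strand and chr4:127021201-127021300 on the plus strand, with CG dinucleotides, which read the same on both strands, in capitals.
Pspc1: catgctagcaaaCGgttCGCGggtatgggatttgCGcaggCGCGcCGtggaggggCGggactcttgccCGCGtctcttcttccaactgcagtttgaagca
Sfpq: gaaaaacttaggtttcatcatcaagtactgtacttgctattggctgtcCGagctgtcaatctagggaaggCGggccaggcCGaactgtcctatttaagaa
The Pspc1 stretch held 10 CG and the Sfpq stretch 3. Of 32851 RefSeq promoters, 18.6% held at least 10 in this window and 51.2% at least 3. The gene nested in an intron of Hnrnpk encodes a microRNA, shown because it marks the bases that Hnrnpk lost in counting. Its mature form, at chr13:58392841-58392863 on the minus strand, is printed with its seed, bases 2 to 8, in capitals.
mmu-miR-7a-5p: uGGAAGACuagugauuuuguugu

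Counts in genes were 29007088 to 34752646 in mESC Input, 473398 to 592324 in mESC IP, 10477119 to 11865285 in K562 Input and 93110 to 111286 in K562 IP. In IP, 3 counts stood for 5.06 to 6.34 CPM in mESC and 27.0 to 32.2 CPM in K562, so the members, with 102 to 319 summed IP counts in mESC and 42 to 86 in K562, were measured far less finely there than in Input. Of 6 pluripotency markers, 5 reached 1 CPM in mESC Input, with a sum of 2066 to 2092 CPM against 1005 to 1216 CPM in IP, and Sox2, which has no countable base, was at 0. Feeder fibroblast markers summed to 65.8 to 69.1 CPM in Input and 48.6 to 117 CPM in IP, and markers of differentiating cells to 2.21 to 2.65 CPM in Input and 91.8 to 125 CPM in IP. Of 6 erythroid markers, 5 reached 1 CPM in K562 Input, with a sum of 266 to 273 CPM and 454 to 629 CPM in IP, and HBG2, also without a countable base, was at 0. HBG1 had 130 counts in K562 with 1 countable base, so the countable lengths may not hold at every locus. Of 5 markers of other blood cells 1 reached 1 CPM in K562 Input, and the list summed to 74.9 to 75.7 CPM there and to 9.26 to 96.7 CPM in IP. The part of these cells in any result was not tested.

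All 5 measured genes were among the better-expressed genes in caRNA of mESC. Pspc1 had 417, 415 and 406 CPM in Input replicates 1 to 3. Sfpq had 299, 303 and 310 CPM. Hnrnpk had 244, 244 and 240 CPM, so that these 3 genes did not overlap. Nono had 148, 140 and 140 CPM and Matr3 147, 141 and 143 CPM, and these ranges overlapped. Spread between replicates was small, with a coefficient of variation of 0.981% (Hnrnpk) to 3.10% (Nono).

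Levels between genes were compared per countable kb. In mESC Input, Sfpq led with 24.5 ± 0.456 CPM per kb (SD, n = 3), followed by Hnrnpk with 20.1 ± 0.197, Nono with 7.39 ± 0.229, Pspc1 with 7.16 ± 0.102 and Matr3 with 4.87 ± 0.0983. No neighbours overlapped in this order, though Nono exceeded Pspc1 by only 1.03-fold, with the lowest Nono library at 7.25 and the highest Pspc1 library at 7.24. In K562 Input the order was the same for the 4 measured genes: SFPQ had 10.7 ± 0.241 CPM per kb, HNRNPK 5.29 ± 0.125, NONO 2.10 ± 0.0275 and PSPC1 1.71 ± 0.0417, again without overlap. The order rested on the length used. Per exonic kb, Pspc1 (71.9) and PSPC1 (38.2) moved from last or near last to first. In IP, per countable kb, Sfpq overlapped Hnrnpk in both lines, and Pspc1, Nono and Matr3 overlapped their neighbours in mESC.

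The next question was whether these transcripts took more or less of the m5C IP libraries than of Input. In mESC all 5 were lower in IP than in Input by about the same amount. Pspc1 had 184, 185 and 208 CPM in IP and fell by 2.07 on the log2 scale (SE 0.083, adjusted p = 3.04e-12, edgeR quasi-likelihood test on counts with TMM scaling). Sfpq had 146, 148 and 96.2 CPM in IP and fell by 2.21 (SE 0.12, adjusted p = 8.33e-11). Each IP library lay below each Input library for both genes. These log2 values are after TMM scaling over all genes kept by the count filter, and the falls are larger than the CPM alone give. For Pspc1 the log2 was -1.10 with library size scaling. It was -1.06 with TMM scaling over genes with a mean of at least 1 CPM in each group.

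Their partner Nono had 63.4, 69.7 and 52.3 CPM in IP and fell by 2.18 (SE 0.14, adjusted p = 9.85e-10). Hnrnpk had 92.9, 98.6 and 87.8 CPM and fell by 2.36 (SE 0.11, adjusted p = 1.80e-11), the lowest value of the 5. Matr3, whose IP libraries were the most spread, had 78.2, 42.5 and 82.7 CPM and fell by 2.07 (SE 0.16, adjusted p = 5.44e-09). Here too IP and Input did not overlap. The 5 values thus span -2.36 to -2.07.

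This has to be read against all genes. Lower values were called for 42.1% of the 20244 genes tested in mESC and higher values for 39.9%, and the median log2 IP/Input was -0.17. Over the 14122 genes with a mean of at least 1 CPM in each group, 31.7% were called lower and 32.2% higher, with a median of -0.04. Depletion went with the Input level, which is also the denominator of the ratio, so the trend is not independent of the classes. The 3910 protein-coding genes with the highest Input, from 63.8 CPM upwards, had a median of -1.84 with quartiles of -2.23 and -1.33, and 96.3% of them were called lower. All 5 members belong to that class, and Hnrnpk alone lay below its lower quartile. With library size scaling alone, which places the median of all genes at 0.80 and calls 24.0% lower and 49.1% higher, the members had log2 values of -1.38 to -1.10, and all 5 were still called lower.

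**Figure D2:**
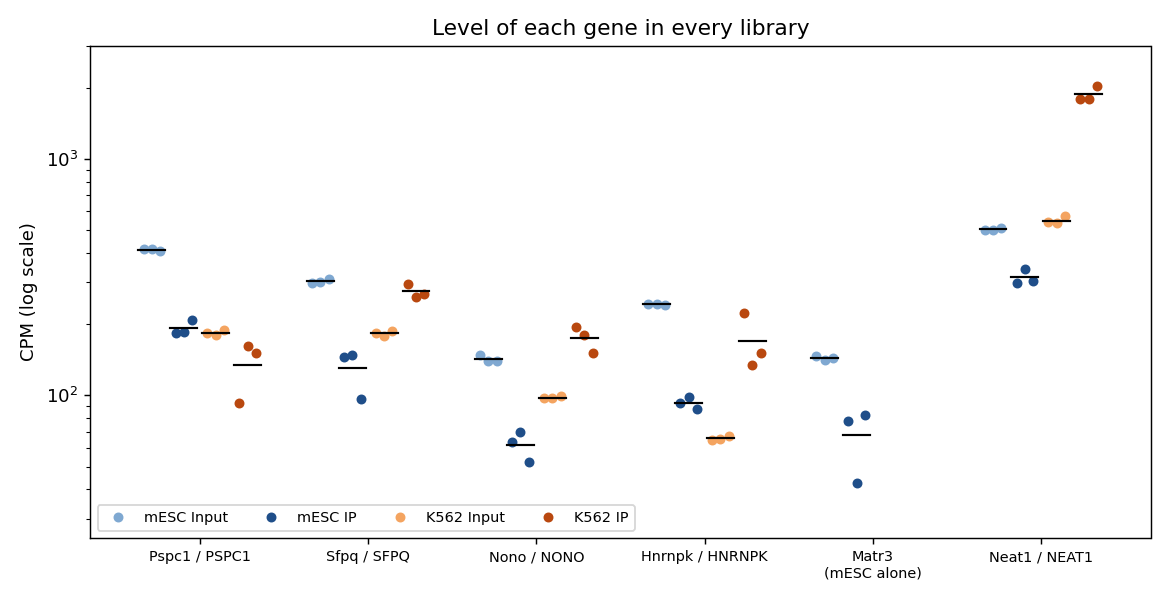
CPM (log axis) of each measured gene and of Neat1 in every library, with 1 point per library and a bar at the mean of 3. All mESC IP points lie below the mESC Input points, whereas the K562 IP points of SFPQ, NONO, HNRNPK and NEAT1 lie above those of K562 Input.

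K562 gave a different picture, in which the members parted. HNRNPK had 64.6, 65.2 and 67.6 CPM in Input and 222, 135 and 150 CPM in IP, a rise of 1.15 on the log2 scale (SE 0.22, edgeR adjusted p = 7.79e-06) or 2.22-fold. The lowest IP library lay above the highest Input library. NONO had 97.1, 97.2 and 99.4 CPM in Input and 195, 180 and 150 CPM in IP, a rise of 0.63 (SE 0.21, adjusted p = 0.0111), again without overlap.

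PSPC1 moved the other way. It had 183, 180 and 189 CPM in Input and 92.6, 162 and 150 CPM in IP, a fall of 0.67 on the log2 scale (95% interval -1.08 to -0.26, edgeR adjusted p = 0.00742), with all 3 IP libraries below Input. This rested on IP replicate 1, with 10 counts. Without it the log2 was -0.45 (adjusted p = 0.165), and without IP replicate 1 NONO also missed the threshold (0.55, adjusted p = 0.118), as it did without IP replicate 2 (0.61, adjusted p = 0.0710). SFPQ had 183, 179 and 187 CPM in Input and 296, 261 and 269 CPM in IP. Its log2 IP/Input of 0.37 (95% interval 0.05 to 0.70) missed the threshold at an adjusted p of 0.0704, although the libraries did not overlap, and it depended on the settings. It passed in 5 of 9 of them, RLE scaling among them (0.50, adjusted p = 0.0141), was 0.037 without a count filter (adjusted p = 0.914), and was called in none of the 6 edgeR fits that left out 1 library (0.31 to 0.41, adjusted p from 0.0600 to 0.277).

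Of the 4 genes measured in K562, 2 were therefore called higher, 1 lower and 1 not called, where 15% of the 14522 genes tested were called higher and 16.8% lower (16.9% and 9.22% when libraries were scaled by size only). All tested genes had a median of -0.17. SFPQ, PSPC1 and NONO were among the 2933 protein-coding genes with the highest Input, from 91.9 CPM upwards, which had a median of -0.56 and of which 3.07% were called higher and 54.7% lower. HNRNPK fell in the next class, from 34.8 to 91.9 CPM, with a median of -0.34 and 5.01% called higher. The K562 fit found almost no spread beyond counting noise (common biological coefficient of variation 0.00988), so that its p-values depend on counting error being the main error.

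**Figure D3:**
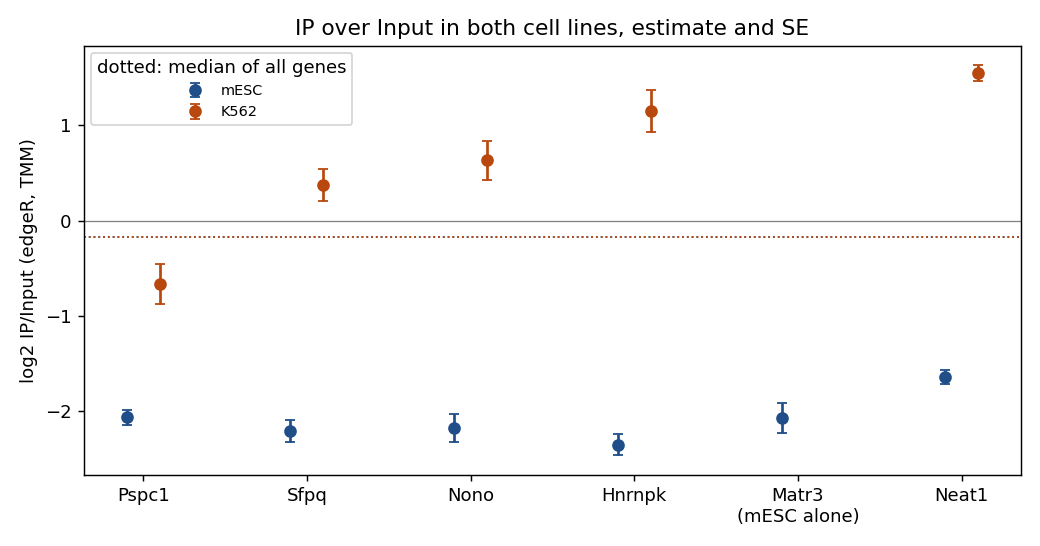
Log2 IP/Input (edgeR, TMM scaling) with its SE for each measured gene and for Neat1 in mESC and K562; dotted lines, which nearly coincide, mark the median of all genes tested. The mESC values of the members lie between -2.36 and -2.07, and the K562 values run from -0.67 for PSPC1 to 1.15 for HNRNPK.

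Because such values shift with the scaling of libraries, the members were also compared with Pspc1 or PSPC1 inside each library, where scaling cancels. SFPQ counts were 1.00, 0.992 and 0.989 times those of PSPC1 in K562 Input and 3.20, 1.61 and 1.79 times in IP. NONO counts were 0.529, 0.540 and 0.526 times in Input and 2.10, 1.11 and 1.00 times in IP. HNRNPK counts were 0.352, 0.362 and 0.358 times in Input and 2.40, 0.833 and 1.00 times in IP. In each of these 3 ratios all IP libraries exceeded all Input libraries. The 3 ratios share the PSPC1 counts, which were 10, 18 and 14 in IP, and so are not independent of each other.

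The log2 change of the ratio in K562 was 1.08 for SFPQ, 1.32 for NONO and 1.82 for HNRNPK, each with an exact two-sided permutation p of 0.1, the smallest that 3 libraries against 3 can give, or 0.175 adjusted over 7 ratios. In mESC, Hnrnpk counts were 0.585, 0.589 and 0.591 times those of Pspc1 in Input and 0.506, 0.532 and 0.423 times in IP, a change of -0.28 with the same p. The mESC ratios of Sfpq (-0.15, exact permutation p = 1), Nono (-0.11, p = 0.9) and Matr3 (-0.04, p = 1) overlapped between IP and Input.

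**Figure D4:**
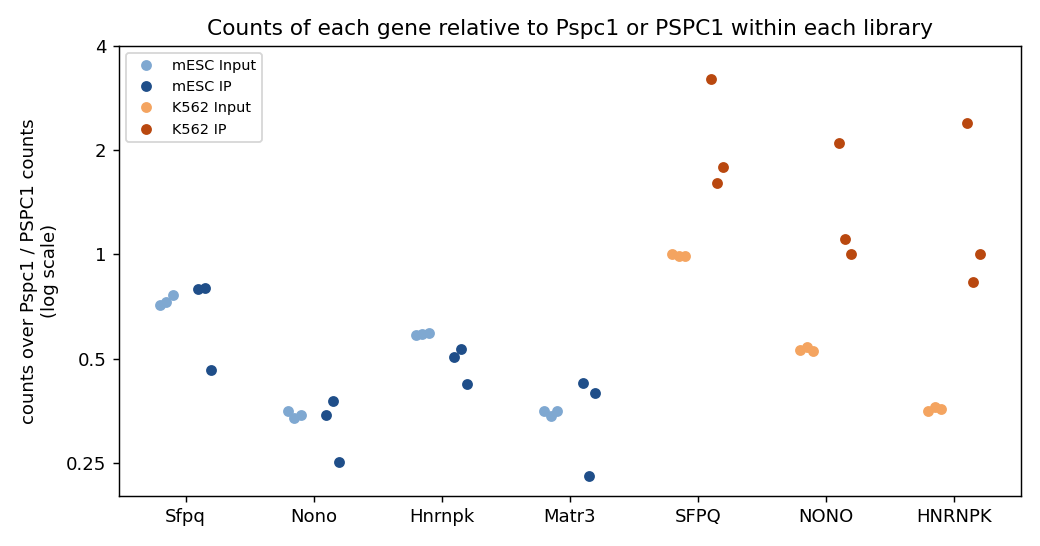
Counts of each member divided by those of Pspc1 (mESC) or PSPC1 (K562) in the same library, on a log axis, with 1 point per library. In K562 the IP points of SFPQ, NONO and HNRNPK lie above all Input points, with replicate 1 the highest, and in mESC only those of Hnrnpk are separate, below Input.

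The difference between the lines was tested in 1 fit to the 12 libraries with an interaction term, over genes whose symbol occurs in both species. Its libraries were scaled over these shared genes alone. Its log2 differences for the members and NEAT1 are therefore on another scale, and smaller, than those between the fits by line. IP/Input was higher in K562 than in mESC by a log2 of 2.88 for HNRNPK (SE 0.31, edgeR adjusted p = 1.66e-08), 2.19 for NONO (SE 0.31, adjusted p = 1.74e-06) and 1.96 for SFPQ (SE 0.26, adjusted p = 7.07e-07). PSPC1 differed least, by 0.78 (SE 0.29, adjusted p = 0.0424), and lost the call in 6 of 12 fits that left out 1 library, namely mESC Input replicates 1 and 2, K562 Input replicates 1 and 2 and K562 IP replicates 2 and 3 (0.58 to 0.78), and in 5 of 9 other settings. A higher value in K562 was called for 16.5% of the 14259 genes tested and a lower one for 14.5%, and the median of all genes was 0.17, or -0.27 with RLE scaling, which called 10.2% higher and 18.7% lower. HNRNPK (2.44), NONO (1.75) and SFPQ (1.52) were called higher in K562 with RLE scaling too. The lines differ in species, culture and depth, which cannot be told apart.

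In Input, the share of caRNA taken by these genes was lower in K562 than in mESC. The log2 of K562 over mESC was -1.88 for HNRNPK (SE 0.029), -1.16 for PSPC1 (SE 0.022), -0.73 for SFPQ (SE 0.023) and -0.53 for NONO (SE 0.031), with edgeR adjusted p-values from 1.91e-41 to 7.34e-20. Lower values were called for 49.4% of the 12949 genes tested and higher values for 44%. Human NONO is longer than mouse Nono (46.7 against 19.3 kb) and PSPC1 longer than Pspc1 (108 against 57.6 kb). With an offset for countable length the log2 was -1.57 for NONO and -1.82 for PSPC1, whereas a correction for the GC content of the gene span put NONO at 0.04 (adjusted p = 0.219). Species, cell line and annotation differ together in this comparison and cannot be told apart. Nor can the mix of cells in a culture and the RNA per cell be told apart in such bulk samples.

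NEAT1, the RNA scaffold of paraspeckles, had a higher Input CPM than any member. Neat1 (ENSMUSG00000092274.3) had 501, 500 and 512 CPM in mESC Input and 298, 343 and 306 CPM in IP, which is -1.64 in log2 IP/Input (SE 0.075, adjusted p = 1.39e-11 by edgeR). NEAT1 (ENSG00000245532.8) had 538, 534 and 572 CPM in K562 Input and 1797, 1788 and 2030 CPM in IP, a log2 of 1.55 (SE 0.080, adjusted p = 2.21e-45) or 2.93-fold. It thus fell in IP in mESC and rose in K562. Its difference in the joint fit, 2.57 on the scale of that fit (SE 0.12, edgeR adjusted p = 2.18e-16), lay between those of HNRNPK and NONO. Per countable kb its Input level was 24.7 ± 0.313 CPM in mESC and 24.6 ± 0.919 CPM in K562 (SD, n = 3).

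Other proteins found in paraspeckles were examined as a list of 30 genes. In mESC 42.1% of all genes tested were called lower and 39.9% higher. Among protein-coding genes from 63.8 CPM of Input upwards, 96.3% were called lower, with a median of -1.84. Of the 29 list genes tested, 26 were called lower in IP and 1 higher, with a median log2 of -1.99. The lowest were Ubap2l, a ubiquitin-associated RNA-binding protein (272 to 277 CPM in Input, 66.3 to 78.2 in IP, log2 -2.91), and Tardbp, the gene of TDP-43 (272 to 279 against 54.0 to 116 CPM, log2 -2.72). Runx3, a transcription factor, rose from 2.65 to 3.17 CPM in Input to 51.0 to 120 CPM in IP (log2 3.84), and Zfp335, a zinc finger regulator, had the highest remaining value by the naming rule at -1.39. Rbm4b and Zc3h6 were not called. With library size scaling alone, 21 of the 29 were called lower and 2 higher, beside 24.0% lower and 49.1% higher over all genes. In K562 the median of the list was 0.05, and over all genes 16.8% were called lower and 15% higher. Of the 26 list genes tested there, 3 were called lower (CPSF6, WTAP and SMARCC1) and 3 higher, RUNX3 and HNRNPH3 among them. These genes, named for their small number after the values were seen, include CPSF6, a pre-mRNA cleavage factor, with a log2 of -1.36, and HNRNPH3, a splicing regulator, with 0.59 (edgeR adjusted p = 0.0398). RUNX3 had 18.5 to 35.9 CPM in K562 IP, where 3 counts stood for 27.0 to 32.2 CPM. Only 1 list gene was called higher with the replicate block, or when any 1 K562 IP library was left out.

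Genes of nuclear matrix and lamina proteins formed a second list. In mESC 42.1% of all genes were called lower and 39.9% higher, and 96.3% of the highest Input class lower. Of the 18 list genes, 16 were called lower and 2 higher in mESC, with a median of -1.97. Nup153 (370 to 379 CPM in Input, 89.5 to 127 in IP, log2 -2.87) and Tpr (419 to 423 against 129 to 163 CPM, log2 -2.46), both of the nuclear pore basket, were lowest. Satb1, a chromatin organiser, had 8.50 to 9.81 CPM in Input and 37.4 to 59.1 in IP (log2 1.48), and Lmna, the gene of lamins A and C, 16.1 to 17.3 against 59.1 to 129 CPM (log2 1.43). Of protein-coding genes with 1.89 to 16.1 CPM in mESC Input, the class of Satb1 and Runx3, 37.2% were called higher. In the next class, up to 63.8 CPM, which holds Lmna, 6.96% were called higher. Some lower calls depended on the scaling. Lmnb2, named after its values were seen, was called lower (log2 -0.41) with 55.5 to 56.2 CPM in Input and 71.8 to 99.6 in IP. With library size scaling alone, 13 of the 18 were called lower and 3 higher, beside 24.0% lower and 49.1% higher over all genes. In K562, 2 of 17 were called lower, NUP153 among them, and 2 higher (HNRNPU and LMNB2), with a median of -0.27. Over all genes tested in K562 the shares were 16.8% lower and 15% higher. For the difference between lines, 14 of 28 paraspeckle genes were called higher in K562 and the rest were not called, and 11 of 18 nuclear matrix genes were higher and 1 lower, beside 16.5% higher and 14.5% lower over all genes. With RLE scaling 9 of the 28 were higher and 1 lower, and 9 of the 18 higher and 1 lower. The list medians of this difference were 1.31 and 1.25, against 0.17 over all genes. The fits by line are on another scale. In them the paraspeckle list had medians of -1.99 in mESC and 0.05 in K562, and the nuclear matrix list -1.97 and -0.27. The highest Input class of protein-coding genes had medians of -1.84 in mESC (from 63.8 CPM) and -0.56 in K562 (from 91.9 CPM). The median of well-expressed genes was thus higher in K562 too, though the classes of the lines hold different genes. Whether the lists differ from that class was not tested. In Input, 18 of 28 and 12 of 18 were lower in K562 and all others higher, beside 49.4% lower and 44% higher over all genes.

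**Figure D5:**
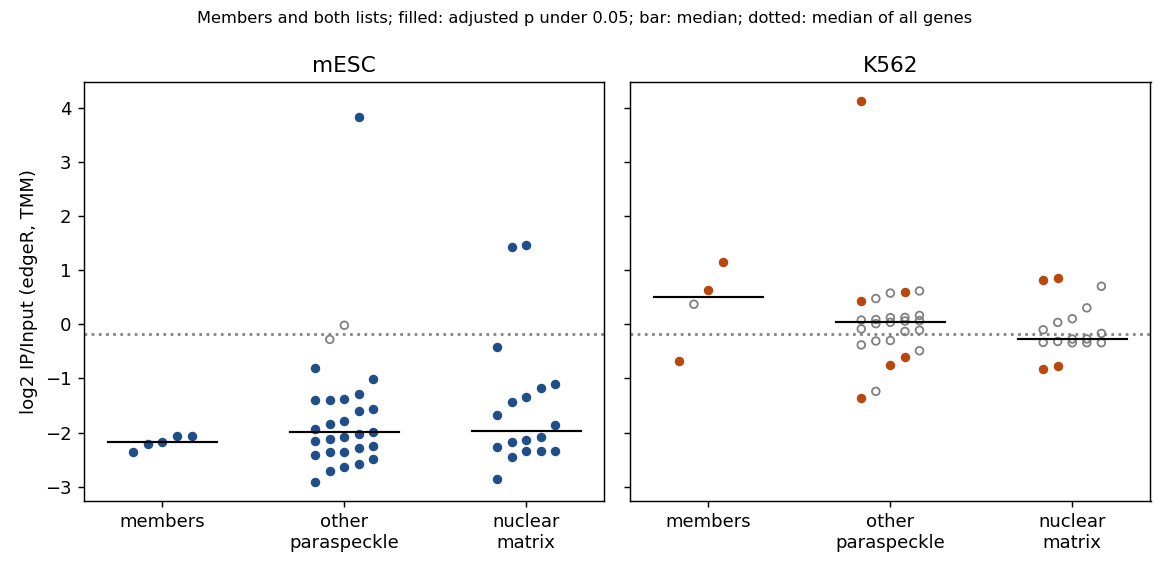
Log2 IP/Input of the members, of the other paraspeckle genes and of the nuclear matrix genes in mESC and K562, with 1 point per gene, filled where the adjusted p was under 0.05, a bar at the median and a dotted line at the median of all genes. The medians of the paraspeckle and nuclear matrix lists are -1.99 and -1.97 in mESC, where Runx3, Satb1 and Lmna stand above 0, and 0.05 and -0.27 in K562.

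The genes whose level over the 12 libraries was most like a member's were listed by Pearson's r of log2(CPM + 1) among 7043 genes with at least 5 CPM in every group. The libraries form 4 separate groups, so r mainly compares group levels and is given as a description. PSPC1 was closest to KIF20A (r = 0.989), a mitotic kinesin, and PTCD3 (r = 0.987), a mitochondrial ribosomal protein. SFPQ was closest to EIF3E (r = 0.972), a translation initiation factor subunit, and IMPDH2 (r = 0.971), an enzyme of guanine nucleotide synthesis. Among the genes closest to NONO was PRMT5 (r = 0.971), an arginine methyltransferase. HNRNPK was closest to RPL22 (r = 0.973), a ribosomal protein, and FAM178B (r = 0.971).

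Finally, the m5C peaks called in each mESC IP library were compared with the genes. None of the 11012, 15235 and 15630 distinct peaks of the 3 lists overlapped any of the 6 mouse genes by 1 bp or more, on either strand, Rbm14 included. Of the 20244 genes tested in mESC, 22.9% held a peak on their strand in at least 1 list and 2.57% in all 3. On either strand these shares were 41.2% and 6.96%. Rbm14, with 0 counts, was not among the genes tested. The nearest peak lay 2.71 kb from Pspc1 on the opposite strand and 3.92 kb from Sfpq on the same strand, each in the list of replicate 2 alone. The nearest peaks of the other 4 genes lay 12.8 kb or more away. With 102 to 319 IP counts per measured gene over 3 libraries, a weaker local signal would not have been detectable at this depth.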

How the data were processed

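m5C IP and Input libraries of caRNA were analysed for mESC and K562, with groups taken from titles. According to the study's methods and the submitters' processing notes, Trimmomatic 0.39 trimmed the reads, HISAT2 2.1.0 placed them on mm10 or hg38 plus spike-ins, and Picard removed duplicates. The authors deposited raw counts per gene with HTSeq summary lines, which stayed out of library sizes (19.0% to 71.7% of records), and peak positions (MACS2, by strand) for mESC, without a usable score. Repeated peak rows were used once. Peaks were called by the authors per library. Spike-ins were not used here, so values are relative within a library.

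Symbols and lengths came from GENCODE M21 and 44, other releases than the study's, and matched 99.9% of mouse and 99.1% of human identifiers. That counting covered whole genes and used strand was inferred from the nested genes. Reads of near-identical copies can still be split.

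The tests on counts used edgeR 4.0.16 (R 4.3.3; glmQLFit, glmQLFTest, TMM, filterByExpr, Benjamini-Hochberg at 0.05), by line, and over 12 libraries for 16445 shared symbols. SE was the absolute log2 divided by the square root of F, and 95% intervals were 1.96 SE on each side. Scripts were tested on simulated data. Exact intervals cover counting error only, since no molecular identifiers separate molecules from PCR copies.

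The members, lists and tests were chosen with earlier results of these data known. Named genes were the members, Neat1, the 2 largest and 2 smallest mESC values of each list (adjusted p under 0.05, mean of at least 5 CPM, no overlap) and the 2 genes most like each member. Some items that this rule or a small count would name are not reported here. Replicates differed by a chi-square per degree of freedom of 0.912 to 3.89 and were kept as 3 per group. The K562 Input pairs 1 and 2 (0.912) and 1 and 3 (0.918) differed by no more than sampling noise over genes, but over 20 bins of GC content each pair differed (21.0 to 98.7). Alternatives were RLE scaling, library size alone, DESeq2 1.42.0, other filters, a replicate block, leaving out libraries and GC corrections, the one on gene span added after seeing the data.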

Additional observations from a re-analysis of the deposited data

Results flagged for a closer look

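A difference of IP/Input between the lines passed the interaction test for all 4 members that could be measured in both, with a log2 of K562 against mESC of 2.88 for HNRNPK (edgeR adjusted p = 1.66e-08), 2.19 for NONO (1.74e-06), 1.96 for SFPQ (7.07e-07) and 0.78 for PSPC1 (0.0424). In 3 of the 4, SFPQ, NONO and HNRNPK, the K562 IP libraries all lay above Input while the mESC IP libraries all lay below. For PSPC1 they lay below in both lines. Its difference was called in 6 of 12 fits that left out 1 library and in 4 of 9 other settings. Over all 14259 genes tested, 16.5% were called higher in K562 and 14.5% lower. In the fits by line, which are on another scale than the interaction test, the highest Input class of protein-coding genes had a median of -1.84 in mESC and -0.56 in K562.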

How the results depend on the processing

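The 5 mESC members stayed called lower under every alternative run, but the size of the fall depended on the filter. Their log2 values were -1.35 to -1.06 over genes with a mean of at least 1 CPM in each group. Without a count filter they were -2.80 to -2.51. In K562 the number of members called was 3, and 1 to 3 when a library was left out; it was 1 without IP replicate 1. PSPC1 lost its K562 call with library size scaling alone (-0.45), DESeq2 (-0.54) and the GC corrections on exons (-0.40) and gene span (-0.48), and NONO without a count filter (0.29, adjusted p = 0.339). The difference of PSPC1 was 0.34 with RLE scaling. NONO in K562 over mESC Input turned to 0.0404 with the GC correction on gene span. In the difference between lines 3 to 4 members were called without 1 library. By exonic length 4 members changed rank in each line, and by gene span 2 changed in mESC. Of the other paraspeckle genes, 6 were called in K562, but 3 with the replicate block and 3 to 6 when a library was left out. Of the nuclear matrix genes, 4 were called in K562, but 12 without a filter and 8 with the GC correction on gene span. Of the 8 genes most like a member, 1 was named by Spearman's rho too. The peak count stayed at 0. The cause of these changes was not tested. Share of calls higher in mESC was 48.7% with TMM and 67.2% with library size alone, and in K562 47.1% and 64.7%.

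Same-numbered Input and IP libraries did not deviate together (correlations 0.00138 to 0.0172 in mESC, -0.00745 to 0.0111 in K562), so the numbers were not used as pairs. The replicate block left 5 members called in mESC, 3 in K562, 4 in the difference and 4 in Input, as without it. Depth limits K562 IP most, where 3 counts equal 27.0 to 32.2 CPM.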
